A study of Mus musculus with 16 samples.

Results

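The genes described are 10 genes of the YAP-TEAD pathway, *Ccn1*, *Ccn2*, *Ankrd1*, *Amotl1*, *Amotl2*, *Axl*, *Lats2*, *Tead1*, *Yap1* and *Wwtr1*, taken by symbol from a table of 14474 genes. All 10 were in the table, each as 1 row. They were selected on pathway membership and on earlier results of these counts, their CPM and fold changes across the groups (the LN332 response of *Ccn2* among them), so their values across the groups are a description and are not evidence that the pathway moved. The cells were immortalized mouse keratinocytes of 2 kinds. The null line, MKα3−, carries no α3 integrin, and the rescued line, MKα3+, was made from it by adding human α3. Both were grown on collagen-coated dishes in low-calcium medium and received laminin-332 (LN332, recombinant human, full length) at 0.02 mg/mL or an equal volume of vehicle, a glycine-containing phosphate-buffered saline with sodium azide, for 16 to 24 h. Each of the 4 groups had 4 libraries of poly(A) RNA. Whether either line is 1 clone is not given in the sources used here.

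YAP (*Yap1*) and its paralog TAZ (*Wwtr1*) are transcriptional co-activators without a DNA-binding domain of their own, and they reach their target genes through TEAD factors such as TEAD1. The LATS kinases of the Hippo pathway phosphorylate YAP and TAZ and keep them out of the nucleus, and angiomotin proteins (AMOT, AMOTL1, AMOTL2) bind YAP and help to hold it in the cytoplasm. Adhesion to the matrix, cell spreading and tension on the cytoskeleton favour nuclear YAP, which in skin is linked to basal keratinocytes and to wound repair. *Ccn1* (Cyr61) and *Ccn2* (Ctgf), which encode secreted matricellular proteins, and *Ankrd1*, which encodes a nuclear ankyrin repeat protein, are the targets most often read as a sign of YAP activity. *Axl*, a receptor tyrosine kinase, and *Amotl2* and *Lats2*, inhibitors of the pathway, are also known targets. Messenger RNA counts do not show where YAP is in the cell or whether it is phosphorylated.

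TEAD factors bind the letters CATTCC, or GGAATG on the other strand. To show where these letters stand near the members, the 250 bases before each annotated start were read from RefSeq promoter sequences (GRCm38.p6) on both strands. Entries were found for 8 of the 10 genes, and *Ccn2* and *Tead1* had none. The letters were present before an annotated start of 6 of the 8 genes, *Ccn1*, *Ankrd1*, *Amotl2*, *Axl*, *Yap1* and *Wwtr1*. They were not in these windows of *Amotl1* and *Lats2*. Counted by gene, 6 of 8 (75%) held them in at least 1 promoter, beside 14.4% of all 27025 genes with a promoter, 13% of those in the count table, 10 of 25 other regulators of the pathway (40%) and 2 of 9 other TEAD target genes (22.2%). The AP-1 letters TGANTCA (7.82% of all genes) and the CArG box (1.62%) were found in none of the member promoters. The *Ccn1* window, chr3:145649986-145650235 on the minus strand, is shown whole because *Ccn1* is the most abundant secreted target among the members. The match 103 bases before the start is in capitals.
Ccn1: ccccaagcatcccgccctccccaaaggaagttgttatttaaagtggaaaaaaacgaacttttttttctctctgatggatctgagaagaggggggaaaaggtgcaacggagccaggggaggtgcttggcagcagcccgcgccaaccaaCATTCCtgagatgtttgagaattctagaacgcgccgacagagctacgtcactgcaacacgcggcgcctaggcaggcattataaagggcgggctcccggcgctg

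For the other genes with a match, the match and the 10 bases on each side are shown on the strand that reads CATTCC, so that the flanks can be compared. *Ankrd1* had 2 matches, 210 bases (chr19:36120039-36120064) and 123 bases (chr19:36119952-36119977) before its start, both read on the plus strand while the gene lies on the minus strand. The matches lay 65 bases before the annotated start used for *Amotl2* (chr9:102717729-102717754), 233 before that of *Axl* (chr7:25788951-25788976), 141 before that of *Yap1* (chr9:8004722-8004747) and 136 before that of *Wwtr1* (chr3:57576031-57576056), all printed from the plus strand. GENCODE exons of *Ankrd1* and *Amotl2* themselves cover the matches printed for these genes. The start used for *Amotl2* (chr9:102717804) is internal, since the gene begins at chr9:102717091, so its match lies inside the gene. The start used for *Amotl1* (chr9:14615000) is also internal, since that minus-strand gene begins at chr9:14662974. The *Amotl1* window thus does not describe the sequence before the gene's 5' end. *Lats2*, which begins at chr14:57746212, was read from starts at chr14:57746123 and chr14:57734418, and the window of the latter lies inside the gene. The starts used for *Axl* (chr7:25788733) and *Yap1* (chr9:8004596) also lie inside genes that begin at chr7:25788924 and chr9:8004638. The matches of *Axl* and *Yap1* lie outside these limits. A match describes these letters only and is not a measured binding site.
Ankrd1, 210: gtgagagggtCATTCCtttggcagtg
Ankrd1, 123: ggtgaattttCATTCCagacttagtg
Amotl2: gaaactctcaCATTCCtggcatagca
Axl: gtctggtaaaCATTCCtgtagaattt
Yap1: cgcgtcgctaCATTCCtgcagactcc
Wwtr1: cgcctatctgCATTCCtttgagttta

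The libraries held between 21735708 and 29338370 counts each (median 27036993). LN332 replicate 1 of MKα3− cells stood apart, with the highest share of mitochondrial counts (2.83%, 0.917% to 1.94% in the others) and of ribosomal *Rn45s* (1.42%, 0.502% to 1.06%), and with a chi-square per degree of freedom of 81.9 to 109.8 against the other libraries of its group. Without it, 2 members were still called with LN332 in MKα3− cells (*Ccn2* and *Amotl2*), and 2 in place of 1 in MKα3+ cells, where *Ankrd1* was added (adjusted p = 0.04118 from limma-voom). Replicate 1 was apart in MKα3+ cells too, at 43.0 to 52.9 in vehicle and 45.9 to 63.0 with LN332 by the same chi-square measure. Replicates 2 to 4 of MKα3+ cells were at 5.45 to 10.6 and 11.3 to 15.1 among themselves. In vehicle-treated MKα3− cells the values were 36.9 to 61.3 for replicate 1 and 18.2 to 31.4 among replicates 2 to 4. TMM factors in MKα3+ cells were 0.961 to 0.988 with LN332 and 1.01 to 1.04 in vehicle. *Itga3*, the targeted gene, had between 211 and 317 CPM (counts scaled to library size, TMM-normalized) in all 4 groups, so its mouse counts do not tell the lines apart and do not check the labels, and the lines are named as labelled. All 8 keratinocyte markers were measured, with a summed level between 8224 and 18875 CPM in every group. Of 8 fibroblast markers, *Dcn*, *Lum* and *Thy1* were not in the table, and the other 5 summed to 11.6 to 40.7 CPM. The 4 endothelial markers summed to 3.33 to 6.45 CPM, 4 of 5 immune markers to 30.7 to 86.4 CPM (*Cd3e* was not in the table), and *Pmel*, the 1 melanocyte marker of 5 in the table, was at 0.827 to 3.94 CPM. Each member rested on at least 534 counts in every library except *Ankrd1*, which had 13 to 112 counts in MKα3− libraries and 276 to 840 in MKα3+ libraries. These are cultures measured in bulk, so a change in the share of cells that express a gene and a change in RNA per cell cannot be told apart.

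Set against exon length, as CPM per kilobase of GENCODE exon, the members spanned a wide range of levels. Over the 16 libraries *Axl* and *Ccn1* were highest, at 209 and 200.04 CPM per kilobase, and *Ankrd1* and *Lats2* lowest, at 5.34 and 5.27. In vehicle-treated MKα3− cells the order was *Axl* (179 ± 16.6, SD, n = 4), *Ccn1* (77.1 ± 18.2), *Yap1* (56.0 ± 4.37), *Amotl1* (42.6 ± 4.21), *Amotl2* (25.8 ± 6.997), *Ccn2* (12.03 ± 2.91), *Wwtr1* (11.5 ± 0.853), *Tead1* (10.3 ± 0.505), *Lats2* (3.46 ± 0.648) and *Ankrd1* (0.652 ± 0.497). In that order *Ccn1* and *Yap1*, *Ccn2* and *Wwtr1*, and *Wwtr1* and *Tead1* were neighbours whose libraries overlapped. *Axl* was the highest member in 3 of the groups, and its libraries overlapped those of *Ccn1* in LN332-treated MKα3− cells and in vehicle-treated MKα3+ cells. In LN332-treated MKα3+ cells *Ccn1* stood first, at 388 ± 83.1 CPM per kilobase against 251 ± 38.7 for *Axl*, with overlapping libraries. *Yap1* was above *Wwtr1* in every group, at 52.6 to 60.9 CPM per kilobase against 11.5 to 15.9.

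**Figure D1:**
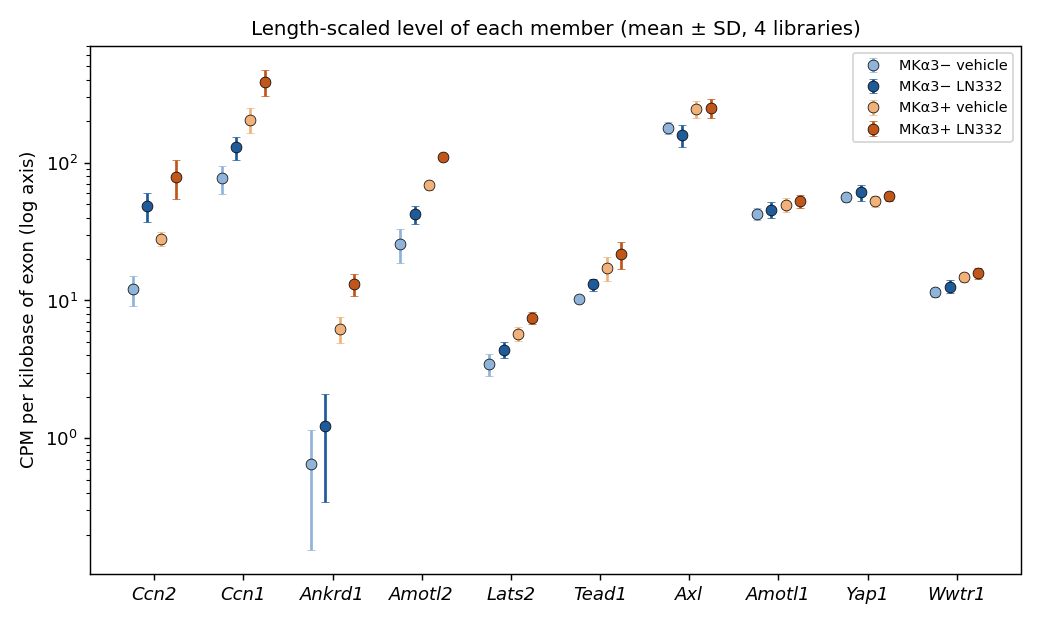
Mean level of each member in CPM per kilobase of exon (log axis) in the 4 groups, with bars of 1 SD over 4 libraries. *Axl* and *Ccn1* are the highest members, and *Ankrd1* rises from 0.652 in vehicle-treated MKα3− cells to 13.3 in LN332-treated MKα3+ cells.

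The first comparison asked how LN332 altered these genes in cells without and with α3. The secreted targets and *Ankrd1* had the largest differences, and the co-activators *Yap1* and *Wwtr1* the smallest along with *Amotl1* and *Axl*. A gene was called changed when its adjusted p from limma-voom was under 0.05 (Benjamini-Hochberg over all 14474 genes) and its log2 fold change was over 0.5 in size. In MKα3− cells 2 members were called, *Ccn2* and *Amotl2*, both higher with LN332, and 0.304% of all genes tested were called in that comparison. In MKα3+ cells 1 member was called, *Ccn2*, where 0.187% of all genes were called. The members were picked with this comparison known, so these counts are not read against those shares. The libraries with and without LN332 did not overlap for 4 members in MKα3− cells (*Ccn1*, *Ccn2*, *Amotl2* and *Tead1*), all higher with LN332, beside 2.29% of all genes. They did not overlap for 4 in MKα3+ cells (*Ccn1*, *Ccn2*, *Ankrd1* and *Amotl2*), beside 4.78%.

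*Ccn2* encodes CTGF, a matricellular protein linked to fibrosis and wound repair. In MKα3− cells its level was 35.2, 26.7, 27.6 and 44.0 CPM in vehicle replicates 1 to 4 and 112, 102, 164 and 160.0 CPM in LN332 replicates 1 to 4. Every LN332 library was above every vehicle library. The difference was 2.01 on the log2 scale (SE 0.22, adjusted p = 0.0006835 from limma-voom), a 4.02-fold increase with a 95% interval of 2.92 to 5.53. In MKα3+ cells the levels were 82.2, 79.1, 84.6 and 64.3 CPM in vehicle and 298, 140, 252 and 190.0 CPM in LN332. The groups again did not overlap, although the LN332 libraries ranged widely, with replicate 2 the lowest. Here the increase was 2.74-fold (95% interval 2.002 to 3.75, log2 fold change 1.45, SE 0.21, adjusted p = 0.02212 from limma-voom). This call was lost on leaving out vehicle replicate 2 (adjusted p = 0.1338) or 4 (0.07841) of MKα3+ cells, or LN332 replicate 3 (0.09763) or 4 (0.1004), while the log2 fold change stayed between 1.29 and 1.65 over the 16 fits without 1 library. The exons of *Ccn2* overlap those of the antisense transcript *Gm15270*, and whether the counting used strand is not given in the sources used here, so reads of the pair cannot be told apart.

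*Ccn1* encodes CYR61, a close relative of CTGF that binds integrins and heparan sulfate. Null cells had 190.3, 146, 108 and 179 CPM in vehicle and 331, 239, 220.0 and 254 CPM with LN332, and the groups did not overlap. Rescued cells had 299, 443, 501 and 417 CPM in vehicle and 763, 571, 976 and 824 CPM with LN332, again without overlap. The log2 differences were 0.76 (SE 0.19, adjusted p = 0.09201 from limma-voom) and 0.91 (SE 0.21, adjusted p = 0.08989), neither past the threshold in a single line. Averaged over both lines, the difference passed, at 0.84 on the log2 scale or 1.79-fold (95% interval 1.45 to 2.20, adjusted p = 0.003583 from limma-voom). Every LN332 library was above the vehicle library of the same number in both lines, by 1.42 to 2.03-fold in MKα3− cells and 1.29 to 2.55-fold in MKα3+ cells.

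*Ankrd1* encodes CARP, a regulator known best from stressed muscle. Rescued cells had 10.8, 11.1, 16.6 and 11.9 CPM in vehicle and 27.5, 20.9, 32.7 and 25.998 CPM with LN332, and the groups did not overlap. The log2 difference was 1.09 (SE 0.24, adjusted p = 0.07868 from limma-voom). Without α3 the gene was near the low end of the table, at 2.70, 0.441, 0.744 and 1.38 CPM in vehicle and 4.35, 0.883, 1.04 and 3.57 CPM with LN332, with overlapping groups. The difference there was 0.81 on the log2 scale, with a wide 95% interval of -0.44 to 2.06. A change of the size seen in MKα3+ cells was thus not detectable by this fit at this depth and spread. The LN332 library was above the vehicle library of the same number in 4 of 4 pairs in each line. The folds were 1.399 to 2.58 in MKα3− cells, where the number was not taken as a pairing, and 1.89 to 2.54 in MKα3+ cells.

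*Amotl2*, an angiomotin family member that restrains YAP and is itself a target, was higher with LN332 in both lines without overlap. Rescued cells had 327, 294, 320.3 and 283 CPM in vehicle and 498, 489, 484 and 495 CPM with LN332, and the LN332 libraries lay closer together than in any other group of this gene. Null cells had 157, 111, 81.4 and 111 CPM in vehicle and 214, 213, 159 and 171 CPM with LN332, and the lowest LN332 library stood just above the highest vehicle library. The log2 differences were 0.69 (SE 0.16, adjusted p = 0.09407 from limma-voom) with α3 and 0.74 (SE 0.15, adjusted p = 0.03591) without α3. The second call was made in 5 of 16 fits with a library left out, namely without replicate 1 of any group or LN332 replicate 3 of MKα3− cells, and adjusted p ranged from 0.006091 to 0.1425. It was not made when the 2 groups were fitted alone (adjusted p = 0.3771).

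In MKα3+ cells the replicate numbers paired the vehicle and LN332 libraries, since same-numbered libraries deviated together in all 4 pairs. With the number as a block across all 4 groups, 4 members were called there in place of 1, with 1.51% of all genes called. The log2 differences were 1.46 for *Ccn2* (adjusted p = 0.001561 from limma-voom), 0.91 for *Ccn1* (0.02557), 1.13 for *Ankrd1* (0.01253) and 0.69 for *Amotl2* (0.01002). A block within the 8 MKα3+ libraries alone, a fit chosen after seeing the data, called the same 4 members, with 3.63% of all genes called. Over all other settings and left-out libraries, adjusted p ranged from 0.0001886 to 0.31 for *Ccn1*, from 8.811e-06 to 0.4409 for *Ankrd1* and from 4.154e-06 to 0.2898 for *Amotl2*.

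**Figure D2:**
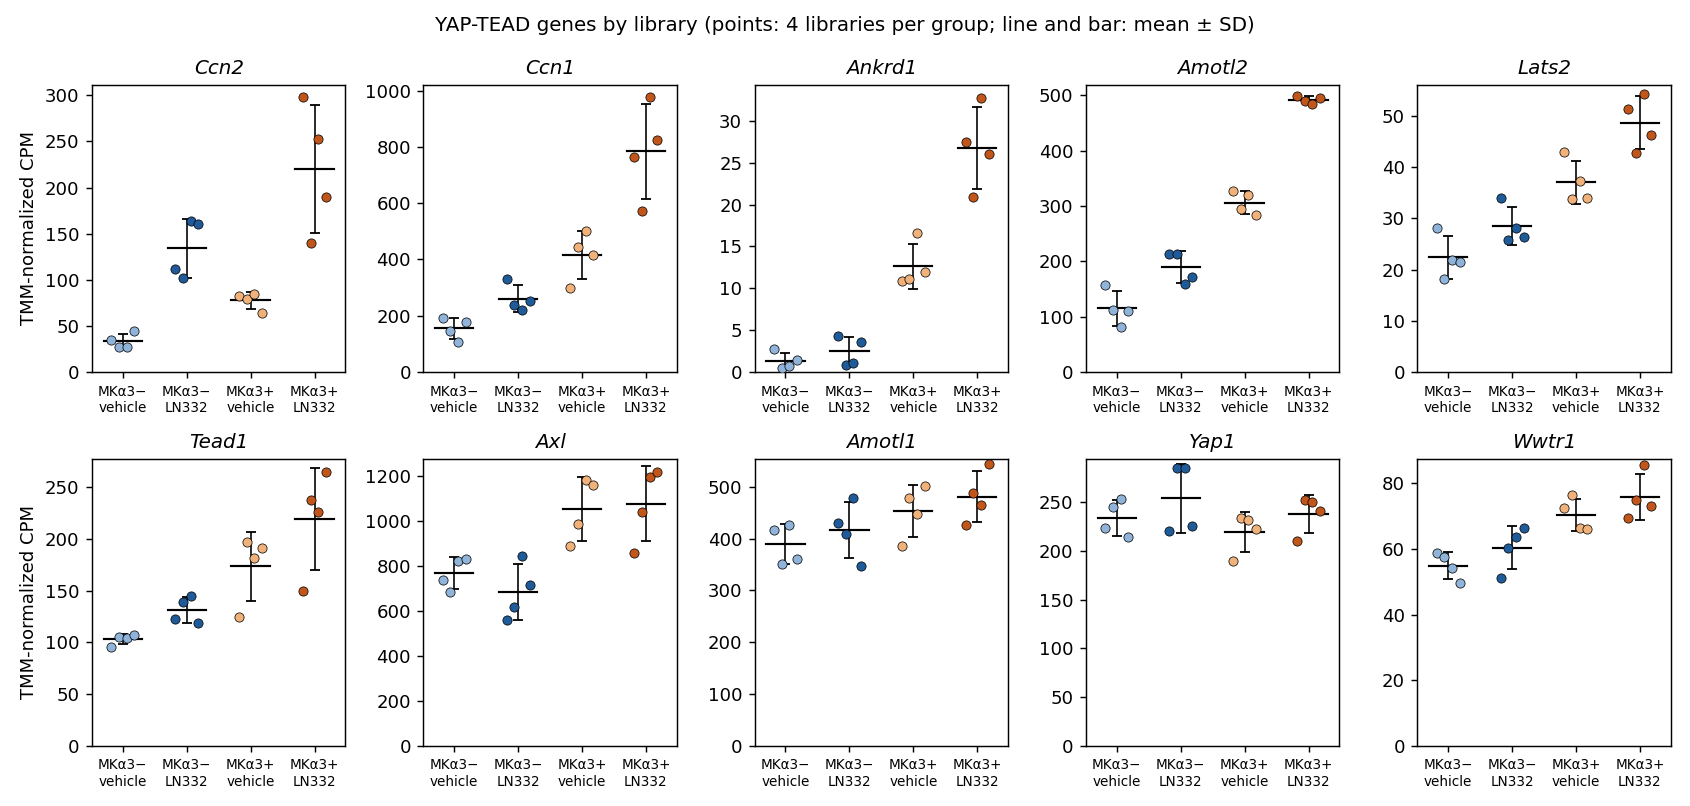
TMM-normalized CPM of each member (vertical axes from 0, scaled per gene) in the 4 libraries of each group, with the mean as a line and bars of 1 SD. *Ccn2*, *Ccn1*, *Ankrd1* and *Amotl2* are higher with LN332 than with vehicle in MKα3+ cells without overlap, while *Yap1* stays between 189.9 and 285 CPM in all groups.

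The kinase gene *Lats2* and the factor gene *Tead1* had smaller differences. *Lats2* was at 18.1 to 28.1 CPM in vehicle and 25.7 to 34.0 CPM with LN332 in MKα3− cells, and at 33.8 to 42.9 and 42.7 to 54.2 CPM in MKα3+ cells, overlapping in each line. The LN332 library was above the vehicle library of the same number in 4 of 4 pairs in each line. Its average difference over both lines was 0.38 on the log2 scale (SE 0.09, adjusted p = 0.02861 from limma-voom), which passed on p and fell short of the minimum fold change. Part of its exons are shared with the model *Gm49361* on the same strand, so its count is uncertain. *Tead1* was at 95.9 to 108 CPM in vehicle and 119 to 145 CPM with LN332 in MKα3− cells, without overlap, and at 125 to 197 and 149 to 265 CPM in MKα3+ cells, where replicate 1 was the lowest library of both groups. Its LN332 library was above the vehicle library of the same number in 4 of 4 pairs in each line, by 1.10 to 1.39-fold in MKα3− cells and 1.199 to 1.38-fold in MKα3+ cells. Its average difference was 0.33 on the log2 scale (SE 0.11, adjusted p = 0.09682 from limma-voom) and 0.34 with the replicate block (adjusted p = 0.01123), under the minimum fold change.

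The 4 remaining members had differences with LN332 between -0.18 and 0.13 on the log2 scale. *Yap1* was at 214 to 253 CPM in vehicle and 221 to 285 CPM with LN332 in MKα3− cells, and at 189.9 to 233 and 210.1 to 252 CPM in MKα3+ cells. The 95% interval of its average difference was -0.05 to 0.27 on the log2 scale, which bounds a rise averaged over the lines below 1.21-fold. In the single lines the upper limits were 1.26-fold in MKα3− cells and 1.27-fold in MKα3+ cells. Its LN332 library was above the vehicle library of the same number in 3 of 4 pairs in MKα3− cells. In MKα3+ cells it was above in 4 of 4, by 1.08 to 1.11-fold. *Wwtr1* was at 49.5 to 58.6 and 51.2 to 66.2 CPM in MKα3− cells and 66.1 to 76.4 and 69.4 to 85.7 CPM in MKα3+ cells, with an interval of -0.02 to 0.26 for its average difference. For *Amotl1*, another angiomotin family gene, the interval was -0.09 to 0.26, and for *Axl* it was -0.29 to 0.14. *Yap1* exons overlap the antisense transcript *Gm20416*, with the same limit as for *Ccn2*. These 4 genes were the members whose differences with LN332 lay nearest 0 in both lines, and the co-activator transcripts were among them.

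Whether LN332 acted on the members differently in the 2 lines was tested as the interaction of LN332 and α3. Of the 10 members, 0 were called by limma-voom, edgeR or DESeq2, and 0 had an unadjusted p under 0.05 in any of the 3, beside 0% of all genes called and 164 genes with an unadjusted p under 0.05 in limma-voom. *Ccn2* had the largest value, a response smaller in MKα3+ than in MKα3− cells by 0.55 on the log2 scale (95% interval of the difference -1.20 to 0.09, unadjusted p = 0.08767 and adjusted p = 0.9999 from limma-voom). The interval was -0.45 to 0.75 for *Ccn1*, -0.52 to 0.40 for *Amotl2* and -1.07 to 1.63 for *Ankrd1*. These intervals are wide beside the responses themselves, so the lines are not shown to respond alike. With the replicate block in limma-voom, 517 genes had an unadjusted p under 0.05 for the interaction, and 0 of them were members. The lowest member values there were 0.05727 for *Ccn2* and 0.07591 for *Axl*, unadjusted, and 0 members were called.

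**Figure D3:**
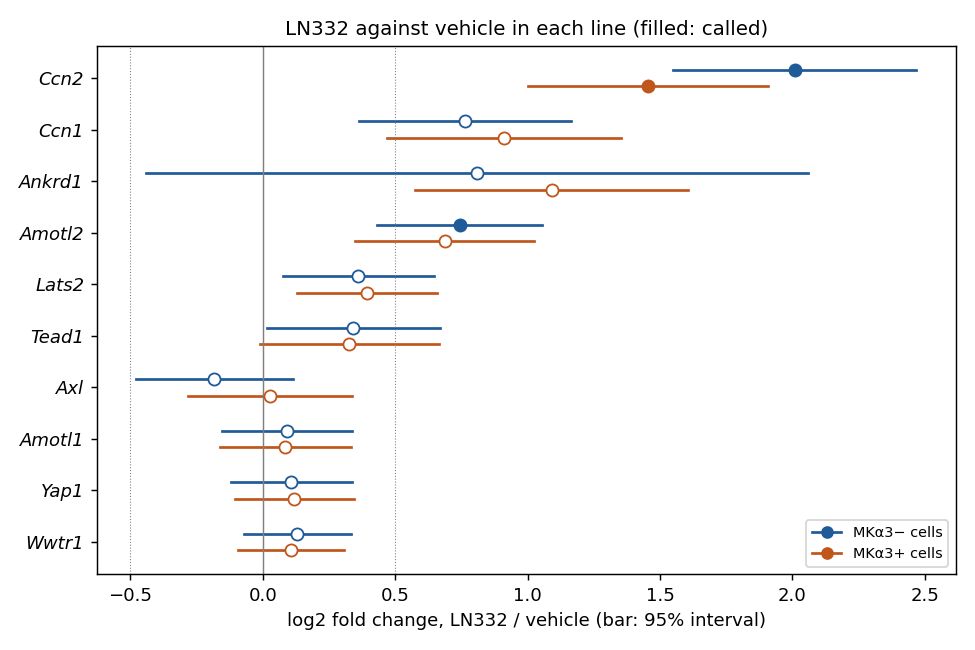
Log2 fold change of each member, LN332 over vehicle, in MKα3− and MKα3+ cells from limma-voom, with 95% intervals (filled points passed the threshold, dotted lines mark 0.5 in each direction). *Ccn2* lies farthest to the right in both lines, at 2.01 and 1.45, and the intervals of the 2 lines overlap for every member.

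The second comparison set MKα3+ cells beside MKα3− cells under each treatment. With 1 line of each kind, the presence of α3 and any other difference between the lines cannot be told apart. In vehicle, 6 members were called and all 6 were higher in MKα3+ cells, *Ankrd1*, *Amotl2*, *Ccn1*, *Ccn2*, *Lats2* and *Tead1*, where 18.5% of all genes were called and 10.9% were called higher. With LN332, 7 were called and all 7 were higher, the same 6 and *Axl*, where 20.6% of all genes were called and 11.7% were called higher. Libraries of the lines did not overlap for 8 members in vehicle and 7 with LN332, all higher in MKα3+ cells, beside 17.2% and 13.6% of all genes. These comparisons share libraries with those of LN332 against vehicle.

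*Ankrd1* had the largest difference between the lines. Every MKα3+ library was above every MKα3− library, and the highest MKα3− value with either treatment was 4.35 CPM beside a lowest MKα3+ value of 10.8 CPM. It was 11.6-fold higher in MKα3+ cells in vehicle (95% interval 5.66 to 23.8, log2 fold change 3.54, adjusted p = 3.619e-05 from limma-voom) and 14.1-fold higher with LN332 (7.76 to 25.7, log2 fold change 3.82, adjusted p = 1.964e-06). The MKα3− side of both ratios rests on as few as 13 counts in a library.

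*Ccn1* and *Amotl2* were called higher in MKα3+ cells under both treatments. *Ccn1* was 2.68-fold higher in MKα3+ cells in vehicle (95% interval 2.02 to 3.57) and 2.98-fold higher with LN332 (2.21 to 4.02). *Amotl2* was 2.73-fold (2.18 to 3.40) and 2.62-fold (2.08 to 3.29) higher. Vehicle-treated MKα3+ cells had as much of both transcripts as LN332-treated MKα3− cells or more. *Ccn1* was at 299 to 501 CPM in the former and 220.0 to 331 CPM in the latter, with overlap, and *Amotl2* at 283 to 327 and 159 to 214 CPM, without overlap.

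*Ccn2* was different in this order. It was 2.36-fold higher in MKα3+ cells in vehicle (95% interval 1.72 to 3.24, adjusted p = 0.0003604 from limma-voom) and 1.61-fold higher with LN332 (1.17 to 2.20, adjusted p = 0.02161), where the libraries of the lines overlapped. The second call was lost when the 2 groups were fitted alone (adjusted p = 0.05138) and in 4 of the 16 fits without 1 library, those without LN332 replicate 1 or 2 of MKα3− cells or LN332 replicate 1 or 3 of MKα3+ cells (adjusted p = 0.05727 to 0.07182, log2 fold change 0.52 to 0.61). LN332-treated MKα3− cells, at 102 to 164 CPM, were above vehicle-treated MKα3+ cells, at 64.3 to 84.6 CPM, without overlap, which was not the case for *Ccn1*, *Ankrd1* or *Amotl2*.

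*Lats2* was 1.67-fold (95% interval 1.37 to 2.02) and *Tead1* 1.66-fold (1.32 to 2.09) higher in MKα3+ cells in vehicle, and 1.71-fold (1.42 to 2.06) and 1.64-fold (1.30 to 2.07) higher with LN332. The receptor gene *Axl* was at 682 to 831 CPM in vehicle-treated MKα3− cells and 886 to 1180 CPM in vehicle-treated MKα3+ cells, a log2 difference of 0.45 (SE 0.14, adjusted p = 0.02728 from limma-voom) that fell short of the minimum of 0.5 and was called without vehicle replicate 1 of MKα3+ cells (0.53) and with sample quality weights (0.52). With LN332 its levels were 557 to 841 and 857 to 1215 CPM, and the difference of 0.66 (SE 0.14, adjusted p = 0.001916) was called. *Wwtr1* was 1.28-fold higher in MKα3+ cells in vehicle (adjusted p = 0.00956 from limma-voom) and 1.26-fold higher with LN332 (adjusted p = 0.01315), both under the minimum fold change. *Yap1* differed by -0.09 on the log2 scale in vehicle (95% interval -0.32 to 0.13) and -0.08 with LN332 (-0.31 to 0.14), and *Amotl1* by 0.22 (-0.03 to 0.47) and 0.21 (-0.03 to 0.46).

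**Figure D4:**
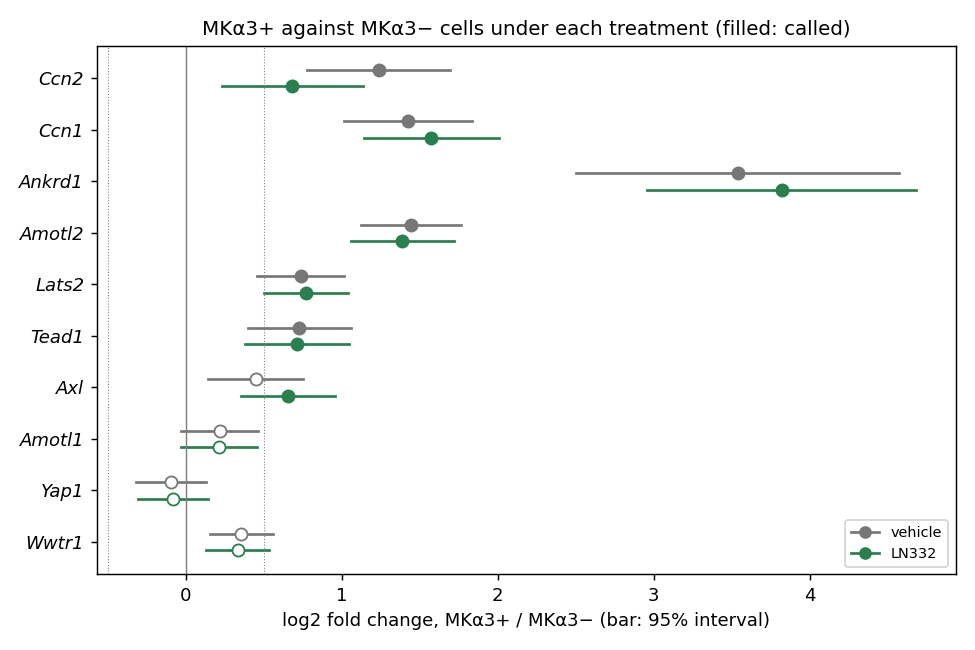
Log2 fold change of each member, MKα3+ over MKα3− cells, in vehicle and with LN332 from limma-voom, with 95% intervals (filled points passed the threshold, dotted lines mark 0.5 in each direction). *Ankrd1* lies at 3.54 and 3.82, *Yap1* just under 0, and *Axl* is filled with LN332 only.

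Some markers of keratinocytes and of other cells differed in these comparisons. With LN332, 0 of the 5 measured fibroblast markers were called in either line (limma-voom). Their sum was 11.6 to 31.7 CPM in vehicle and 19.5 to 33.5 CPM with LN332 in MKα3− cells, and 18.3 to 29.1 and 26.2 to 40.7 CPM in MKα3+ cells. Between the lines in vehicle, *Krt15* (basal keratinocytes) was lower in MKα3+ cells by 2.64 on the log2 scale, *Pmel* (melanocytes) was lower by 1.26, and *Csf1r* (macrophages) was higher by 1.51, out of 8 keratinocyte, 1 melanocyte and 4 immune markers measured. *Krt15* and *Pmel* rested on as few as 14 and 23 counts in a vehicle-treated MKα3+ library. With LN332 on both lines, *Krt5* and *Trp63* (basal keratinocytes) were lower in MKα3+ cells, with log2 fold changes of -0.80 and -0.91, as was *Pmel* (-0.93, adjusted p = 0.007601 from limma-voom), while *Csf1r* was higher (0.89, adjusted p = 0.03601). Not every keratinocyte marker was lower in MKα3+ cells. Mean *Krt14* was higher there, 5802 against 4231 CPM in vehicle and 7342 against 6086 with LN332. *Krt15* averaged 0.809 against 3.48 CPM with LN332 and was not called under that treatment. Log2 fold changes of the 8 keratinocyte markers ran from -2.64 to 0.47 in vehicle and from -1.96 to 0.30 with LN332, with 0 called higher. The part of these marker differences in the members' values was not tested.

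The rest of the pathway was described from lists that were also chosen with earlier results known. Of 31 other regulators (upstream kinases and adaptors, other TEAD and VGLL genes, junction proteins), the median difference with LN332 was 0.05 on the log2 scale in MKα3− cells and 0.04 in MKα3+ cells, beside -0.01 in both lines over all genes. None of the 31 was called by limma-voom in a single line, where 6 and 4 had an unadjusted p under 0.05. In MKα3− cells edgeR called 0 and DESeq2 1, and in MKα3+ cells edgeR called 0, DESeq2 1 and limma-voom with the replicate block 1. Averaged over the lines, 1 was called, where 1.35% of all genes were called. This was *Vgll3*, which encodes a TEAD co-factor, at 37.1 to 48.6 CPM in vehicle and 36.1 to 92.2 CPM with LN332 in MKα3− cells, and 35.9 to 39.0 and 56.1 to 61.9 CPM in MKα3+ cells. Its average difference was 0.60 on the log2 scale (SE 0.14, adjusted p = 0.01898 from limma-voom). The groups overlapped in MKα3− cells and not in MKα3+ cells.

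Between the lines in vehicle, 5 of the 31 regulators were called, all 5 higher in MKα3+ cells, beside 18.5% of all genes called and 10.9% called higher, and the list's median was 0.27 on the log2 scale beside 0.01 for all genes. A share this near that of all genes is not read as a result about the list. *Amot*, the founding angiomotin gene, was at 3.44, 1.25, 1.91 and 1.42 CPM in vehicle-treated MKα3− cells and 65.2, 47.2, 45.4 and 37.1 CPM in vehicle-treated MKα3+ cells. It was higher there by 4.68 on the log2 scale (SE 0.37, adjusted p = 6.038e-08 from limma-voom), more than any member. Of the other angiomotin genes, *Amotl2* differed between the lines by 1.45 and *Amotl1* by 0.22 on the log2 scale. *Tead2*, another TEAD factor gene, was at 0.526 to 1.42 CPM in MKα3− cells and 4.03 to 8.58 CPM in MKα3+ cells, a log2 difference of 3.06 (SE 0.35, adjusted p = 4.884e-06). *Cd37* lies over part of *Tead2* on the other strand. *Vgll1*, a TEAD co-factor gene, was at 0.0354 to 0.456 CPM in MKα3− cells, as little as 1 count in a library, and at 0.612 to 1.41 CPM in MKα3+ cells. *Wwc1* (KIBRA) and *Wwc2*, which encode upstream adaptors of LATS, were higher by 0.68 (SE 0.11) and 0.67 (SE 0.09). With LN332 on both lines 6 regulators were called higher, beside 11.7% of all genes, these 5 and *Mob1b*, which encodes a LATS co-activator and was higher by 0.53 (SE 0.15, adjusted p = 0.009774 from limma-voom) with overlapping libraries. The call of *Mob1b* was lost without LN332 replicate 1 of MKα3− cells or LN332 replicate 2, 3 or 4 of MKα3+ cells.

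Of 16 other known TEAD target genes, 15 were in the table. Their median difference with LN332 was 0.16 on the log2 scale in MKα3− cells and 0.33 in MKα3+ cells, and 1 was called in each line, beside 0.304% and 0.187% of all genes. In MKα3− cells edgeR called 2, DESeq2 3 and limma-voom with the replicate block 3, beside 0.325%, 1.14% and 1.79% of all genes. In MKα3+ cells edgeR called 0, DESeq2 3 and the block 2, beside 0.0276%, 0.836% and 1.51%. The limma-voom call without the block in MKα3− cells was *Gadd45b*, a stress response gene, at 333, 337, 183 and 271 CPM in vehicle and 546, 718, 428 and 487 CPM with LN332 (log2 fold change 0.97, SE 0.17, adjusted p = 0.02746 from limma-voom). This call was made in 12 of 16 fits without 1 library and was lost without vehicle replicate 3 or 4 or LN332 replicate 2 or 4 of MKα3− cells. In MKα3+ cells it was *F3*, which encodes tissue factor, at 25.8, 30.7, 30.4 and 29.5 CPM in vehicle and 77.2, 50.9, 55.6 and 53.3 CPM with LN332 (log2 fold change 1.01, SE 0.19, adjusted p = 0.04659). Its call was made in 4 of 16 fits without 1 library, with adjusted p from 0.03347 to 0.164, and was lost without any 1 of the MKα3+ libraries, vehicle replicate 2 or 4 or LN332 replicate 2 or 3 of MKα3− cells. Averaged over both lines, 3 were called beside 1.35% of all genes, *Gadd45b* (0.87, SE 0.12), *F3* (0.82, SE 0.14) and *Nt5e*, which encodes CD73 (0.51, SE 0.09), and all 3 were higher with LN332. The call of *Nt5e* was lost on leaving out vehicle or LN332 replicate 3 of MKα3− cells or LN332 replicate 1 of MKα3+ cells, where the log2 fold change fell to 0.45 to 0.50.

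Between the lines in vehicle, 1 of the 15 other targets was called higher in MKα3+ cells and 1 lower, beside 18.5% of all genes called in either direction, and the list's median was 0.20 on the log2 scale, with 10 of 15 above 0. *Nt5e* was lower in MKα3+ cells, at 18.0 to 19.9 CPM beside 31.4 to 40.3 CPM, by 0.93 on the log2 scale in size (log2 fold change -0.93, SE 0.12, adjusted p = 2.073e-05 from limma-voom). *Igfbp3*, which encodes a secreted binder of insulin-like growth factors, was higher by 0.68 (SE 0.23, adjusted p = 0.03547) with overlapping libraries, and this call was lost without vehicle replicate 1 or 3 of MKα3− cells or vehicle replicate 2, 3 or 4 of MKα3+ cells. Differences of *Gadd45b* (0.21, SE 0.17) and *F3* (-0.24, SE 0.20) were not called.

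Of the 4 other genes of the CCN family, 3 were in the table. *Ccn4* (Wisp1) was at 9.17 to 27.1 CPM in vehicle and 21.5 to 51.2 CPM with LN332 in MKα3− cells, and at 45.2 to 46.2 and 62.9 to 82.7 CPM in MKα3+ cells. It was called higher in MKα3+ cells in vehicle (log2 fold change 1.67, SE 0.27, adjusted p = 0.000181 from limma-voom) and with LN332 on average over the lines (0.88, SE 0.18, adjusted p = 0.01253). *Ccn5* stayed at or under 3.35 CPM and was called higher in MKα3+ cells in vehicle (1.33, SE 0.48, adjusted p = 0.04809) with overlapping libraries. That call was made in 6 of 16 fits without 1 library and was lost without vehicle replicates 1 to 3 or LN332 replicates 1 and 2 of MKα3− cells, or vehicle replicates 1 and 4 or LN332 replicates 2 to 4 of MKα3+ cells, left out singly. *Ccn6* stayed at or under 1.35 CPM.

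**Figure D5:**
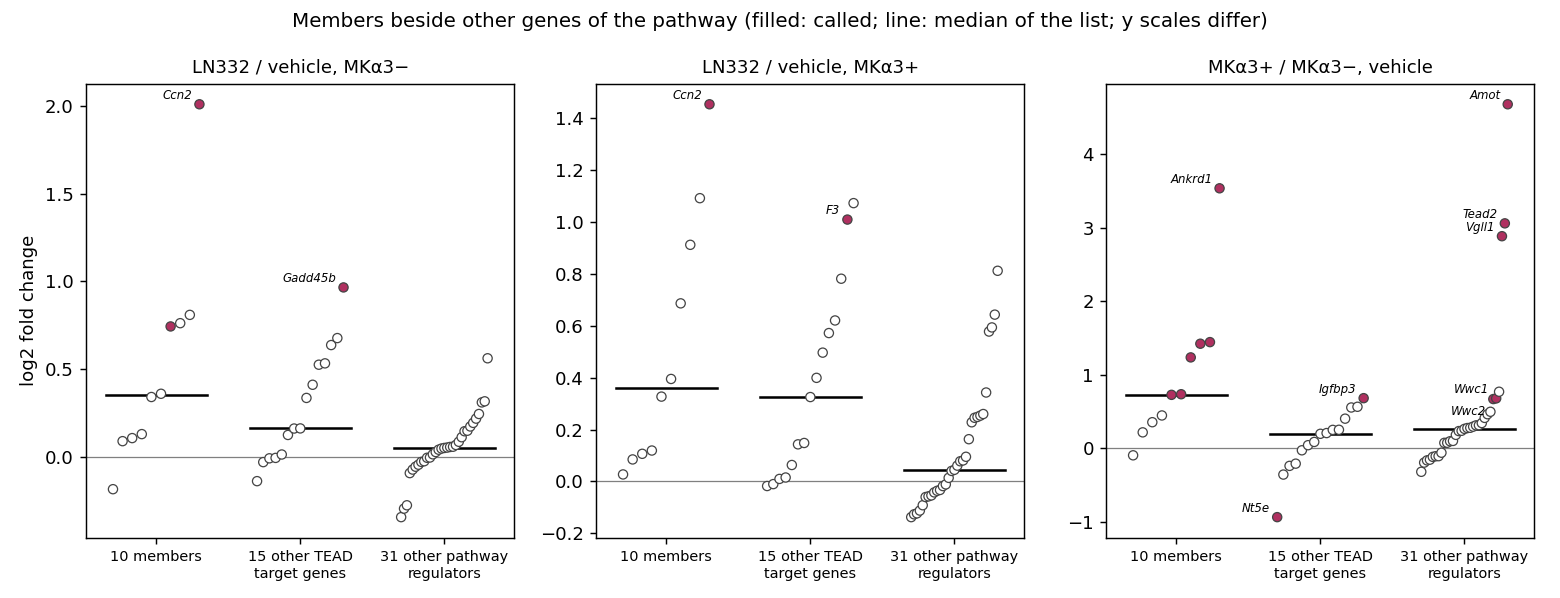
Log2 fold changes of the 10 members, 15 other TEAD targets and 31 other regulators (points ordered by value, filled where called, lines at the median of each list) for LN332 in each line and for MKα3+ over MKα3− cells in vehicle, on vertical scales that differ between panels. *Ccn2* is the highest point among members with LN332 in both lines, and *Amot* is the highest point of the third panel at 4.68.

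To find genes with a like pattern, each gene's log2 CPM was centred on its own mean over the 16 libraries and compared with *Ccn1*, *Ccn2* and *Ankrd1* by the root mean square difference, over the 11792 genes whose mean log2 CPM was 1 or more. The 3 nearest to *Ccn1* were *Bcl2l15* (0.31 on the log2 scale), *Krt80* (0.32) and *Nppb* (0.33), where *Ccn1* itself had an SD of 0.90 over the libraries. The nearest to *Ccn2* (SD 1.04) were *Cited2* (0.50), a gene without a symbol (Entrez100861595, 0.50) and *Prss23* (0.56). Those nearest to *Ankrd1* (SD 1.98) were *Gm6637* (0.52), *Erc2* (0.64) and *Pbx4* (0.67). The points share their 16 libraries and group structure, so this orders genes by likeness and is not a test.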

How the data were processed

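RNA-seq counts of 16 libraries were analysed. After alignment to mm10 (Rsubread), the authors used featureCounts and its Entrez gene models, and deposited raw counts for 14474 genes. The methods' filter of over 0.5 CPM in at least 3 libraries removed 0 of them. Here TMM factors (edgeR 4.0.16) and limma-voom (limma 3.58.1, R 4.3.3) were applied to all 16 libraries in 1 fit with a coefficient per group, and adjusted p-values are Benjamini-Hochberg over all genes. CPM values are TMM-normalized. DESeq2 1.42.0 and edgeR's quasi-likelihood test were alternatives, and a replicate block within MKα3+ libraries was added after seeing the data. The members, gene lists and tests were chosen with earlier results of these data known. Named genes are the 10 members, up to 6 genes per other list and comparison among those called, and the 3 genes most like each of *Ccn1*, *Ccn2* and *Ankrd1*. The code was tested on simulated data. The methods call in vitro data points replicates of the experiment. Whether these libraries came from separate cultures is not given in the sources used here, so p-values measure the spread between libraries, which may be technical. No pair of replicates agreed within sampling noise (chi-square per degree of freedom at least 5.45). Replicate numbers come from the labels. Between vehicle and LN332 in MKα3+ cells, same-numbered libraries deviated from their group means together (correlations 0.62, 0.47, 0.20 and 0.58), so the number was taken as a pairing there.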

Additional observations from a re-analysis of the deposited data

How the results depend on the processing

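The settings tried were edgeR, DESeq2, DESeq2's size factors, library size alone, no filter, at least 10 counts in every library, sample quality weights, the replicate block, a fit of the compared groups alone, no minimum fold change, a minimum of 1 on the log2 scale, and each library left out. The block within the compared groups was added after seeing the data. Beside 2 members called with LN332 in MKα3− cells, 1 was called with library size alone, with only the groups compared, with a minimum of 1, and 1 to 2 without 1 library, while DESeq2 called 3, adding *Ccn1* (adjusted p = 0.01469). Beside 1 called in MKα3+ cells, 3 were called with DESeq2, 4 with the replicate block, across all groups or within MKα3+ libraries, with sample quality weights and with only the groups compared, and 0 to 2 without 1 library, with 0 where *Ccn2* was lost. With a minimum of 1, the average LN332 response held 1 in place of 3, and the difference between the lines with LN332 held 3 in place of 7. In the difference between the lines in vehicle that minimum dropped *Lats2* (0.74 on the log2 scale) and *Tead1* (0.73). The cause was not tested for any of these except the minimum, which removes smaller changes by construction. In MKα3− cells the same-numbered correlations were 0.19, 0.51, 0.30 and -0.01, and the number was not taken as a pairing there. Over all groups the mean correlation was 0.26 for same numbers and -0.08 for different numbers. Of 16 libraries, 14 correlated best with their own number. The number may thus mark structure shared by both lines, which the main fit does not use. In MKα3− cells the block called 3 members, adding *Ccn1* (adjusted p = 0.04 from limma-voom). The block also called *Ankrd1* in the average response (adjusted p = 0.01637). It changed no other member's call.

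Values near 0 changed sign. The interaction of *Yap1* was -0.000159 with edgeR and -0.076 with sample quality weights, that of *Wwtr1* was 0.022 with sample quality weights, and the *Axl* response of MKα3+ cells was -0.051 under library size alone. Without 1 library, *Axl* there ranged from -0.051 to 0.13, and the interactions ranged from -0.16 to 0.70 (*Ankrd1*), -0.092 to 0.06 (*Amotl1*), -0.22 to 0.097 (*Amotl2*), -0.082 to 0.13 (*Lats2*), -0.17 to 0.16 (*Tead1*), -0.056 to 0.074 (*Yap1*) and -0.096 to 0.024 (*Wwtr1*). Of 930 values for single genes under the other settings 867 kept direction and side of the threshold, as did 1262 of 1376 without 1 library. The 930 include the setting without a filter, which equals the main fit because the filter removed 0 genes, so its values could not change.

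Over all genes the count called with LN332 was 44 in MKα3− cells (1 with only the groups compared, 6 with a minimum of 1, 74 with library size alone, 123 with sample quality weights, 165 with DESeq2, 259 with the block, 1 to 150 without 1 library, lowest without vehicle replicate 3 and highest without LN332 replicate 1 of that line), 27 in MKα3+ cells (3 with library size alone, 4 with edgeR, 5 with a minimum of 1, 107 with only the groups compared, 121 with DESeq2, 218 with the block, 454 with sample quality weights, 526 with the block within these libraries, 0 to 47 without 1 library, with 0 without vehicle replicate 2 or 4 or LN332 replicate 3 or 4 of that line) and 196 on average (13 with a minimum of 1, 363 with the block, 464 with sample quality weights, 114 to 321 without 1 library, lowest without vehicle replicate 3 and highest without LN332 replicate 1 of MKα3− cells). The average split was 133 higher and 63 lower, and 84 and 174 with library size alone, which moved the median of all genes to -0.08 on the log2 scale.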
